A study of Homo sapiens with 8 samples.

Results

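Phase II conjugation enzymes and epoxide hydrolases were followed in DU145 cells, a human prostate cancer line derived from a brain metastasis, with and without chronic exposure to Aldrin. The members were taken by gene symbol: UDP-glucuronosyltransferases (UGT), sulfotransferases (SULT), cytosolic, mitochondrial and microsomal glutathione transferases (GST, MGST), N-acetyltransferases (NAT) and epoxide hydrolases (EPHX) that have an array probe set annotated to them alone. In all 43 of the 18132 genes with a probe set of their own were members, and 90 probe sets read them. Where a gene had several, the one with the highest mean of the 8 arrays was used. The classes held 9 UGT, 9 SULT, 16 cytosolic GST, 3 microsomal GST, 2 NAT and 4 EPHX genes. UGT8 also has a probe set of its own, but the symbol rule did not take it. The GSTs counted as cytosolic include GSTK1, whose enzyme is found in mitochondria and peroxisomes, and GSTM2P1, which is annotated as a pseudogene.

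The 4 Aldrin-exposed arrays came from cells kept for 50 days in medium with 1 μM Aldrin, renewed after every passage, with DMSO at 0.01% as the solvent. The 4 Non-exposed arrays came from DU145 cells whose treatment is labelled as none, and whether they received DMSO is not given in the sources used here. All arrays read total RNA of the same cell line as biotin-labelled cRNA on Affymetrix arrays. The labels and methods do not call the replicates separate cultures, and p-values here are therefore set by array-to-array spread that may be technical alone. The comparison asked which transcripts of the drug- and pollutant-conjugating machinery differ after chronic exposure.

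Aldrin is a chlorinated cyclodiene insecticide. Cytochrome P450 enzymes turn it into its epoxide, dieldrin. Epoxide hydrolases add water to epoxides and give diols. UGTs attach glucuronate, SULTs attach sulfate, GSTs attach glutathione and NATs attach an acetyl group, and the products are usually more soluble and are pumped out of the cell. Liver, intestine and kidney are rich in these enzymes, and in the prostate UGT2B15, UGT2B17 and SULT2B1 are known for handling steroids.

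Promoter sequences of 4 members are printed first, because they show the contrast in CG content that went with the array levels described further on. GSTP1 and GSTM4 stand for members in the highest of the level bands explained below, UGT2B7 for one in the lowest, and GSTM3 is an exception in the highest. They are from RefSeq on GRCh38.p14, run from 250 bases before to 50 bases after the annotated start, 5′ to 3′ on the gene's strand, and each CG dinucleotide is in capitals. The GSTP1 window is chr11:67583562-67583861 (plus strand) with 36 CG, the GSTM4 window is chr1:109655849-109656148 (plus strand) with 21, the GSTM3 window is chr1:109740989-109741288 (minus strand) with 1, and the UGT2B7 window is chr4:69096224-69096523 (plus strand) with 0.
GSTP1: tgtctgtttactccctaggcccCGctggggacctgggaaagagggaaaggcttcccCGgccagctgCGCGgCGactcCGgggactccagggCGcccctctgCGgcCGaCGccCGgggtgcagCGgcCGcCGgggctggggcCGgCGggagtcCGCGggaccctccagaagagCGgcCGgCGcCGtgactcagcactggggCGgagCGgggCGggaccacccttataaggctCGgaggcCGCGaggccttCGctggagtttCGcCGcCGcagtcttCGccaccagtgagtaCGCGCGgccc
GSTM4: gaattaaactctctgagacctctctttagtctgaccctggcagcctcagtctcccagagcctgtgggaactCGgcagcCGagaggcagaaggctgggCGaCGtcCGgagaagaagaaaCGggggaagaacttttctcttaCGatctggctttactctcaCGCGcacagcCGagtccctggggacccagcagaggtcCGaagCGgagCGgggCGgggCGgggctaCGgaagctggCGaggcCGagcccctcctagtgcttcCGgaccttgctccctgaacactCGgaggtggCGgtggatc
GSTM3: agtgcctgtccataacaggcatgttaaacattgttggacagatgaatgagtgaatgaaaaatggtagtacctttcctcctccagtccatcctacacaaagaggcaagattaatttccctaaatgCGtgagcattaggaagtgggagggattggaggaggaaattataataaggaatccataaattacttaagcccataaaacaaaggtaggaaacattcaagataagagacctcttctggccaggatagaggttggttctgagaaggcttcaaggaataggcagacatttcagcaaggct
UGT2B7: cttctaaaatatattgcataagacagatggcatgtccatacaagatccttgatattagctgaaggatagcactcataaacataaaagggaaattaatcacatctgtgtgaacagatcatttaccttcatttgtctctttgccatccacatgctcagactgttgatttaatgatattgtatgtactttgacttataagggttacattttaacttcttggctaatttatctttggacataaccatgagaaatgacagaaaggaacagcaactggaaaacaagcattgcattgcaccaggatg

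Most SULT and UGT members were read in the lower range of the background controls in either condition, whereas most GST members were read above the control with 20 G or C in 25 bases. Levels are log2 intensities, made by the authors with RMA, and 1 unit is a doubling. Since the values of different probe sets cannot be compared directly, each member was set against the arrays' background controls, probes of 25 bases that match no transcript and contain from 3 to 25 G or C. Members whose mean was at or below that of the control with 15 G or C (5.41) were called low, members above the control with 20 G or C (8.35) were called high, and those between them middle. The G and C content of the members' own probes was not used here, so no band settles whether a transcript was present. A low value can still be above background for probes of fewer G or C (the controls with 14 and with 3 G or C had means of 4.88 and 3.59). A middle value is above it for probes of up to 15 G or C, and for probes of 20 it is not. A high value is above it for probes of up to 20 G or C, and for probes of more the band does not tell. By this reading 21 of 43 members (48.8%) were low, 7 (16.3%) middle and 15 (34.9%) high. Over all genes the shares were 17.3%, 31.8% and 51.0%.

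**Figure D1:**
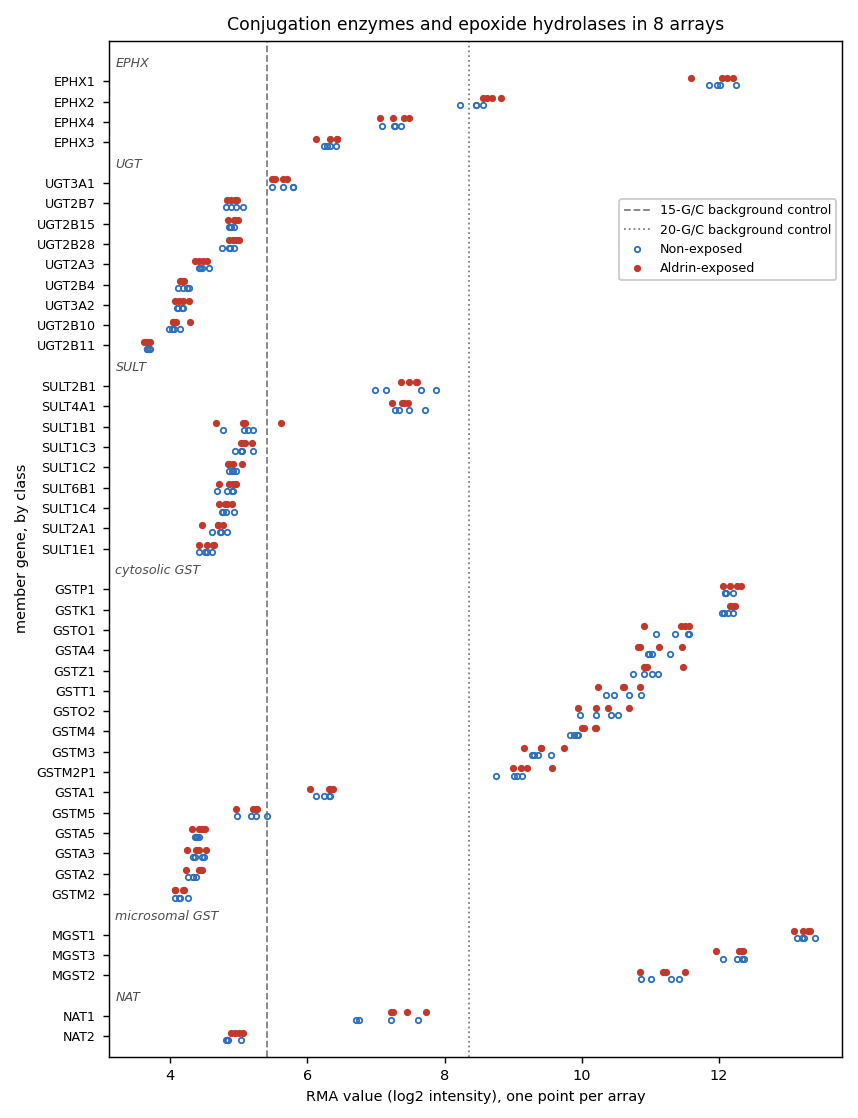
RMA values (log2 intensity, x axis) of the 43 members on each array, by class, with Aldrin-exposed arrays as filled red points, Non-exposed arrays as open blue points, and the means of the 15-G/C and 20-G/C background controls as dashed and dotted lines. Of 9 UGT and 9 SULT members 0 lie beyond the dotted line, against 10 of 16 cytosolic GST, 3 of 3 microsomal GST and 2 of 4 EPHX members.

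Across the whole series the arrays were alike. Correlations between arrays ran from 0.983 to 0.997 and array medians from 8.05 to 8.10 on the log2 scale. Of 49293 probe sets 1 (0.00203%) passed limma's adjusted p of 0.05, and 1515 were at an unadjusted p under 0.05. The epithelial markers (CDH1, EPCAM, KRT8, KRT18, KRT19) were all 5 above the 20-G/C control. All 5 had the lower mean in Aldrin-exposed cells, with log2 fold changes from -0.46 to -0.09, and their part in the results was not tested. The 5 hepatocyte markers also all had the lower mean, with log2 fold changes from -0.21 to -0.01. A higher mean was seen in 45.8% of all genes and in 52.1% of those above the 20-G/C control. The 3 measured prostate luminal markers, KLK2, KLK3 and TMPRSS2, lay in the middle band. Whether they were above background cannot be told without the composition of their probes. Of the hepatocyte markers ALB and TTR were in the low band, APOA1 and CYP3A4 in the middle band, and SERPINA1 was read at 11.84. Leukocyte, endothelial and fibroblast markers were nowhere above the 20-G/C control.

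The difference between the conditions was small for every member, and each fold change below is a log2 value, Aldrin-exposed minus Non-exposed. By limma with Benjamini-Hochberg adjustment over all probe sets 0 of 43 members passed, and their smallest adjusted p was 1.00. At an unadjusted p under 0.05 there were 2 members, GSTM4 and EPHX2, or 4.65% of the members against 2.76% of all genes. The 4 and 4 arrays did not overlap for 1 member, GSTM4, or 2.33% against 1.75% of all genes. The mean was higher in Aldrin-exposed cells for 26 members (60.5%) and lower for 17, against 45.8% of all genes with a higher mean. The median log2 fold change of the members was 0.02, beside -0.01 over all genes, and the median size of a fold change was 0.04, beside 0.07. These counts describe the list and single out nothing about it. The fold changes ran from -0.09 for UGT3A1 to 0.33 for NAT1, and the 95% intervals of all members lay between -0.40 and 0.80, so differences beyond those bounds are outside every member's interval. Without Aldrin-exposed replicate 2 the higher mean was seen in 18 members and without Aldrin-exposed replicate 3 in 37. Leaving out Non-exposed replicate 2 brought the 2 members at an unadjusted p under 0.05 to 0, leaving out Non-exposed replicate 4 to 3, and leaving out any other array except Aldrin-exposed replicate 3, where it stayed at 2, to 1.

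**Figure D2:**
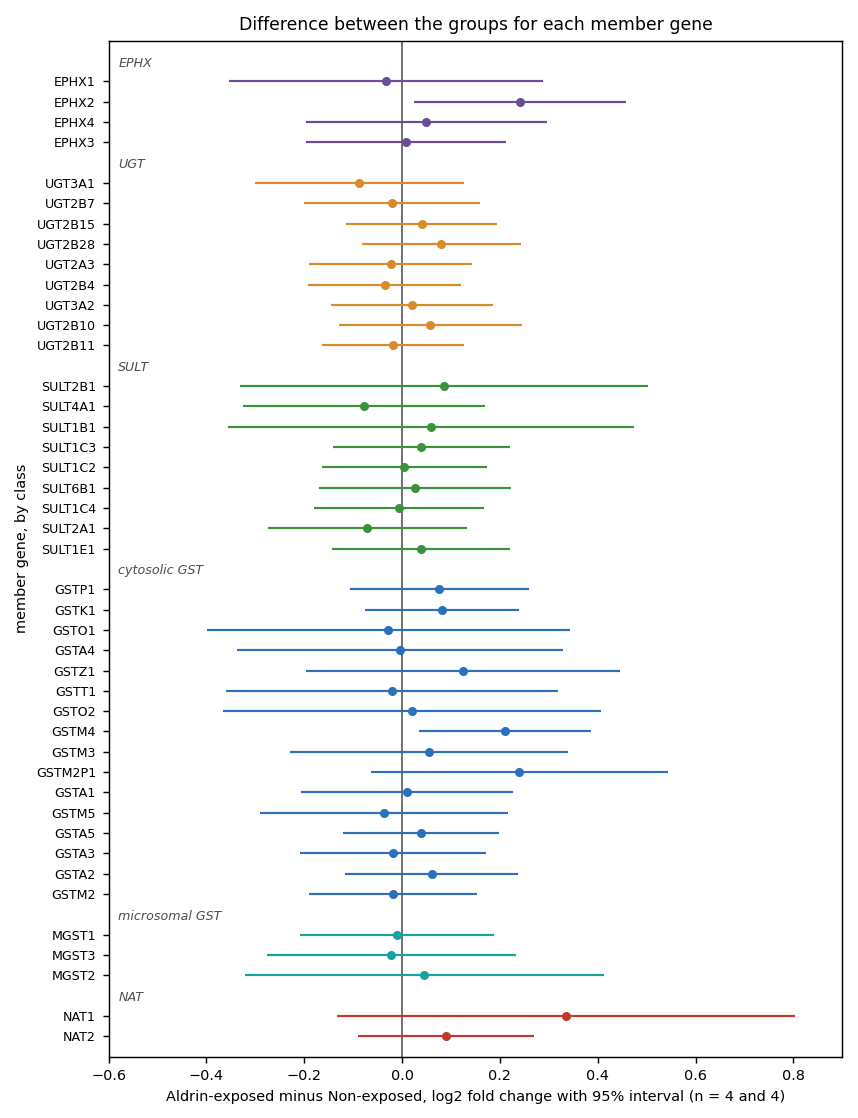
Log2 fold change (Aldrin-exposed minus Non-exposed, x axis) of each member with its 95% interval from limma (n = 4 and 4), grouped and coloured by class. The intervals of GSTM4 and EPHX2 leave out 0, and 26 of the 43 points lie to its right.

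Epoxide hydrolases act on the kind of group that Aldrin's oxidation product carries. EPHX1, the microsomal hydrolase that opens many xenobiotic epoxides, was read at 12.05, 12.11, 11.59 and 12.21 in Aldrin-exposed replicates 1 to 4 and at 11.98, 11.85, 12.25 and 12.02 in Non-exposed replicates 1 to 4. The groups overlapped fully, with the lowest value on an Aldrin-exposed array and the highest on a Non-exposed one. Its log2 fold change was -0.03 (standard error 0.14, exact permutation p = 0.857), with a 95% interval from -0.35 to 0.29. EPHX2, the soluble hydrolase that opens the epoxides of arachidonic acid and linoleic acid, was read at 8.69, 8.61, 8.82 and 8.55 in Aldrin-exposed cells and at 8.23, 8.46, 8.56 and 8.46 in Non-exposed cells. The Aldrin-exposed arrays were the higher ones except for replicate 4, which was just under the highest Non-exposed array. The log2 fold change was 0.24 (standard error 0.10, unadjusted limma p = 0.0325, adjusted p = 1.00, exact permutation p = 0.0571), and a further EPHX2 probe set gave 0.10. EPHX3, which hydrolyses fatty acid epoxides, and EPHX4, whose substrate is not known, lay in the middle band with fold changes of 0.01 and 0.05.

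Cytosolic GSTs were the class with most members in the high band. GSTP1, the pi-class enzyme whose promoter is known to be methylated in many prostate tumours, was read at 12.26, 12.06, 12.16 and 12.32 in Aldrin-exposed cells and at 12.09, 12.21, 12.11 and 12.09 in Non-exposed cells. These values overlapped, and methylation was not measured here. The log2 fold change was 0.08 (standard error 0.08, exact permutation p = 0.257, 95% interval -0.11 to 0.26). GSTK1, the kappa-class enzyme, averaged 12.20 ± 0.04 with Aldrin and 12.12 ± 0.07 without it (SD, n = 4), a fold change of 0.08. GSTO1, an omega-class enzyme that reduces dehydroascorbate and methylated arsenic, was at 11.36 ± 0.30 and 11.39 ± 0.23 (SD, n = 4). GSTO2, of the same class, had 6 probe sets, and these gave fold changes from -0.28 to 0.02. GSTZ1, which isomerises maleylacetoacetate in tyrosine breakdown, had a fold change of 0.13, and its 3 probe sets all had a higher mean in Aldrin-exposed cells. GSTT1, a theta-class enzyme that acts on small halogenated compounds, was at 10.57 ± 0.25 and 10.59 ± 0.23 (SD, n = 4).

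The mu class held the one member whose groups were apart. GSTM4 was read at 10.00, 10.21, 10.03 and 10.19 in Aldrin-exposed cells and at 9.92, 9.88, 9.83 and 9.95 in Non-exposed cells. All 4 Aldrin-exposed arrays were above all 4 Non-exposed arrays. The ratio was 1.16, a log2 fold change of 0.21 (standard error 0.08, 95% interval 0.03 to 0.39, unadjusted limma p = 0.0244, adjusted p = 1.00), and the exact permutation p of 0.0286 is the smallest that 4 against 4 arrays can give. Its 3 probe sets gave fold changes from 0.21 to 0.28. The one of 0.28, in the middle band, had overlapping groups (standard error 0.23, 95% interval -0.23 to 0.79). Mu-class genes are near copies of each other, and a further probe set annotated to both GSTM1 and GSTM4 read 11.37 ± 0.20 against 11.18 ± 0.10 (SD, n = 4), a fold change of 0.20 with overlapping groups. The 3 GSTM4 probe sets may therefore also take up RNA of its neighbours in sequence, which was not tested.

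GSTM2P1 was read at 9.20, 9.12, 8.9999 and 9.57 in Aldrin-exposed cells and at 8.74, 9.05, 9.13 and 9.01 in Non-exposed cells. The groups overlapped, with Aldrin-exposed replicate 4 the highest and Non-exposed replicate 1 the lowest, and the fold change was 0.24 (standard error 0.13, exact permutation p = 0.200). A further probe set of GSTM2P1, in the low band at 5.15, gave -0.14 (standard error 0.08, exact permutation p = 0.0571). The probe set used for GSTM2P1 may also take up RNA of other mu-class genes, which was not tested. GSTM3 was at 9.43 ± 0.24 against 9.37 ± 0.12 (SD, n = 4), while GSTM2 and GSTM5 were low, with fold changes of -0.02 and -0.04. Of the alpha class, GSTA4, which conjugates the lipid peroxidation product 4-hydroxynonenal, was high at 11.06 ± 0.30 against 11.07 ± 0.15 (SD, n = 4). GSTA1 was in the middle band and GSTA2, GSTA3 and GSTA5 in the low band, with fold changes from -0.02 to 0.06 among these 4 members.

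**Figure D3:**
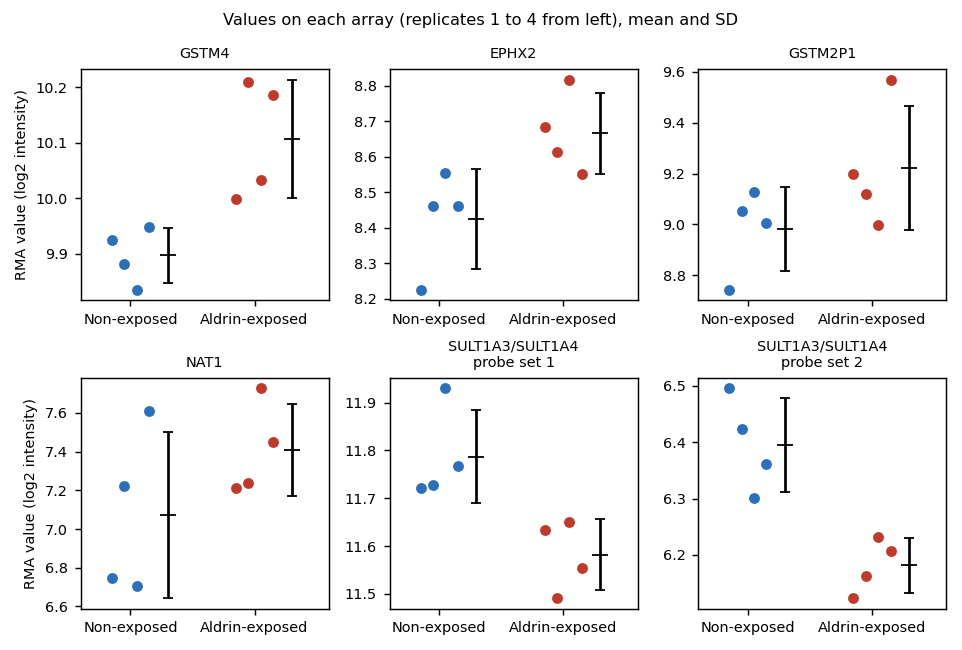
RMA values (log2 intensity, y axis, each panel on its own scale that does not start at 0) of 4 members and of the probe sets shared by SULT1A3 and SULT1A4, with 1 point per array and the mean ± SD beside the points. The groups are apart for GSTM4 (higher in Aldrin-exposed cells) and for both SULT1A3/SULT1A4 probe sets (lower), and overlap for EPHX2, GSTM2P1 and NAT1.

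Microsomal GSTs, membrane enzymes that also reduce lipid hydroperoxides or join glutathione to leukotriene A, were all 3 in the high band. MGST1 was read at 13.22, 13.10, 13.33 and 13.30 in Aldrin-exposed cells and at 13.13, 13.24, 13.22 and 13.41 in Non-exposed cells. The arrays of both groups were interleaved, with a fold change of -0.01 (standard error 0.09, exact permutation p = 0.886) and a 95% interval from -0.21 to 0.19. MGST2 and MGST3 had fold changes of 0.05 and -0.02 with wider intervals, from -0.32 to 0.41 and from -0.28 to 0.23.

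UGT members were mostly in the low band. Among the 9 members 8 were low and UGT3A1, which uses N-acetylglucosamine in place of glucuronate, was just inside the middle band at 5.59 ± 0.10 against 5.67 ± 0.15 (SD, n = 4). Of the UGT2B genes UGT2B15, which glucuronidates androgens, was at 4.92 ± 0.06 and 4.88 ± 0.03 (SD, n = 4), and UGT2B7, which acts on morphine and many other drugs, was at 4.91 ± 0.07 and 4.93 ± 0.10 (SD, n = 4). Both lay under the 15-G/C control and just above that of 14 G or C, with fold changes of 0.04 and -0.02, and whether these hold transcript signal cannot be told without the composition of the probes. UGT2B28 had a fold change of 0.08, UGT2B4 of -0.04 and UGT2A3 of -0.02. UGT8, outside the member list, was in the high band at 10.91 ± 0.16 against 10.78 ± 0.11 (SD, n = 4), a fold change of 0.13. The UGT1A genes share their last exons, and the 9 probe sets annotated to several of them, which are outside the member list, were read from 4.06 to 5.77 with fold changes from -0.12 to 0.07.

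SULTs were low in 7 of 9 members. The exceptions were SULT2B1, which sulfates cholesterol and pregnenolone, and SULT4A1, a brain form without a known substrate, both in the middle band. SULT2B1 was read at 7.47, 7.58, 7.36 and 7.59 in Aldrin-exposed cells and at 7.15, 6.99, 7.88 and 7.65 in Non-exposed cells. The Non-exposed arrays split widely around the Aldrin-exposed ones, with SDs of 0.42 and 0.11, and the fold change was 0.08 (standard error 0.19, exact permutation p = 0.714). SULT4A1 had a fold change of -0.08 and SULT2A1, which sulfates dehydroepiandrosterone and bile acids, one of -0.07 in the low band.

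SULT1A3 and SULT1A4, identical copies of a catecholamine sulfotransferase, are read by 2 probe sets annotated to several genes and were therefore not members. They are given here because their values were seen to be apart. The one in the high band was at 11.63, 11.49, 11.65 and 11.55 in Aldrin-exposed cells and at 11.72, 11.73, 11.93 and 11.77 in Non-exposed cells. The other, in the middle band, was at 6.12, 6.16, 6.23 and 6.21 against 6.50, 6.42, 6.30 and 6.36. In both, all Aldrin-exposed arrays were below all Non-exposed arrays. Among the probe sets of several genes in the GSTM, GSTT, UGT1A and UGT2 families 0 had groups apart, and over all genes 1.75% did. Both SULT1A3/SULT1A4 probe sets are annotated to the same genes, so they do not count as separate results. The fold changes were -0.20 (standard error 0.08) and -0.21 (standard error 0.07), and the adjusted p was 1.00 for each. Their annotation includes readthrough transcripts with SLX1A and SLX1B.

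NATs acetylate arylamine and hydrazine compounds. NAT1 had the greatest fold change among the members and the widest interval. As NAT1 lay in the middle band, whether it was above background cannot be told without the composition of its probes. It was read at 7.21, 7.24, 7.73 and 7.45 in Aldrin-exposed cells and at 6.75, 7.22, 6.71 and 7.61 in Non-exposed cells. The groups overlapped, as Non-exposed replicate 4 was higher than all Aldrin-exposed arrays except replicate 3. The fold change was 0.33 (standard error 0.21, 95% interval -0.13 to 0.80, exact permutation p = 0.229), and it was 0.51 without Non-exposed replicate 4 and 0.21 without Non-exposed replicate 3. NAT2, the form known for slow and rapid acetylator types, was low at 4.97 ± 0.07 against 4.88 ± 0.10 (SD, n = 4).

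Single arrays moved many members at once. Among the 15 high members Aldrin-exposed replicate 3 was the lowest of its group in 8, with a median deviation of -0.22 from the group mean. Over all 9240 high genes it was the lowest in 33.3%, with a median deviation of 0.00. Non-exposed replicate 3 was the highest of its group in 8 of the 15, with a median deviation of 0.14, against 22.9% of all high genes. The members that shared this pattern included EPHX1, GSTO1, GSTT1, GSTA4 and MGST2. The gap between background controls of 20 to 25 and of 3 to 10 G or C, on the log2 scale, also varied among arrays, from 5.59 to 6.14 in Aldrin-exposed and from 5.76 to 6.37 in Non-exposed arrays. It was 5.65 on Aldrin-exposed replicate 3 and 6.37 on Non-exposed replicate 3. The smallest gap, 5.59, was on Aldrin-exposed replicate 2, on which the high members deviated the other way, with a median of 0.10 and the highest value of the group in 6 of 15. The gap's part in the members' values was not tested array by array. With this gap as a covariate in limma, an alternative added after the data were seen, 30 members had the higher mean in Aldrin-exposed cells and 1 was at an unadjusted p under 0.05.

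**Figure D4:**
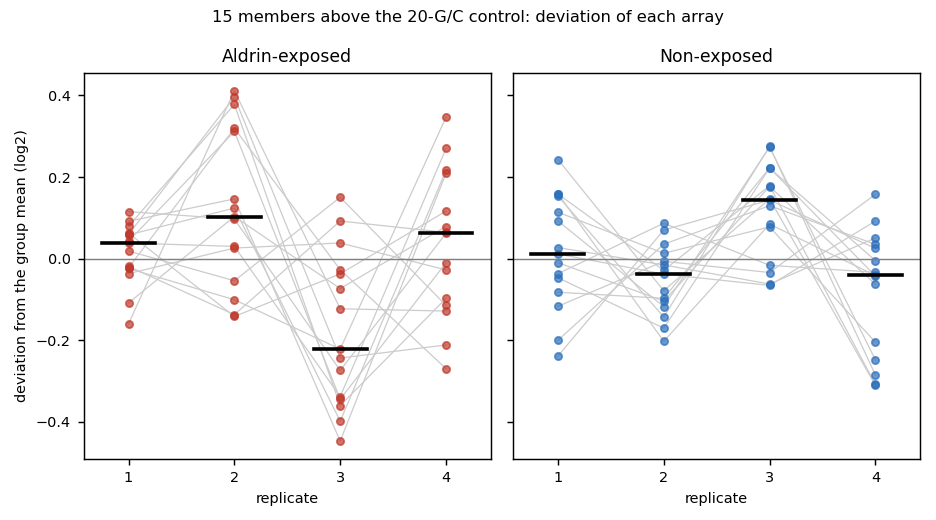
Deviation of each array from its group mean (log2, y axis) for the 15 high members, with 1 point per member, grey lines joining the 4 arrays of a group and black bars at the median. Aldrin-exposed replicate 3 has a median of -0.22 and Non-exposed replicate 3 a median of 0.14.

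Probe sets of one gene often pointed to different sides. Of the 23 members with more than 1 probe set, 8 had all of them on one side of 0 (EPHX2, GSTA1, GSTA3, GSTM4, GSTP1, GSTZ1, SULT1C2 and UGT2B15). The median SD within a group was 0.11 with Aldrin and 0.10 without it for the members, beside 0.16 and 0.14 over all genes, but low members make up more of the list. Within the high band the members had a median SD of 0.25 with Aldrin and 0.15 without it, beside 0.19 and 0.17 for all high genes, and within the low band 0.08 and 0.08 beside 0.09 and 0.09.

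Genes that supply or dispose of the conjugates were read through 9 further lists, and 0 genes of these lists passed the adjusted p. At an unadjusted limma p under 0.05 were 1 of 10 genes of glutathione metabolism, 1 of 9 conjugate transporters and 1 of 17 receptors and factors. In the other lists there were 0, and over all genes the share was 2.76%. The 6 genes that make and move UDP-glucuronate were all high, with 4 of higher and 2 of lower mean and a median fold change of 0.07. PGM1, which interconverts glucose phosphates, was at 11.09 ± 0.20 against 10.86 ± 0.18 (SD, n = 4), and SLC35D1, the transporter of UDP-glucuronate into the endoplasmic reticulum, had a fold change of 0.40 (standard error 0.27). Of 9 genes for sulfate uptake and the sulfate donor PAPS, 5 had a higher mean, among them PAPSS1, a PAPS synthase, at 0.17 and SLC26A2, a sulfate transporter, at 0.12. Of 10 genes of glutathione metabolism 7 had a higher mean, with a median of 0.08. The list joins synthesis, cystine uptake and reduction (GCLC, GCLM, GSS, SLC7A11, SLC3A2, GSR) with breakdown (CHAC1, CHAC2, GGCT, OPLAH). CHAC1, which breaks glutathione down, had a fold change of 0.27 (standard error 0.11) and was at an unadjusted p under 0.05. CHAC2, of the same family and in the middle band, had one of 0.29 (standard error 0.20). The limiting enzyme of glutathione synthesis is made of GCLC and GCLM, whose fold changes were 0.08 and 0.11.

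Lower means were the more common ones over all genes too, of which 45.8% had a higher mean, and in the middle band 35.6%. In the high band they were not, as 52.1% of all genes there had a higher mean. In the list of conjugate transporters 5 of 9 measured genes were in the high band, 3 in the middle and 1 in the low band. Of the 9 genes 8 had the lower mean in Aldrin-exposed cells, with a median of -0.11. These 8 were the ABC exporters, and the remaining gene was SLC10A6, an uptake carrier of sulfated steroids in the low band. ABCG2, an efflux pump for sulfate conjugates among others, was at 7.53 against 7.79 in the middle band, a fold change of -0.26 (standard error 0.09), and was the one exporter at an unadjusted p under 0.05. ABCC2, also in the middle band, had a fold change of -0.17 and ABCC1, which exports glutathione conjugates, one of -0.12. The list of hydrolases that undo conjugation held 8 measured genes, of which 6 had the lower mean. It includes SUMF1 and SUMF2, which are sulfatase-modifying factors and not hydrolases, with fold changes of -0.06 and 0.10. STS, the steroid sulfatase, had one of 0.20 in the middle band. In the mercapturate pathway, which trims glutathione conjugates, 5 of 12 genes had a higher mean. GGT5 and ACY1, both in the middle band, had fold changes of -0.21 and -0.34. The lowest ACY1 value, 6.26, was on Aldrin-exposed replicate 3, beside 7.17, 7.21 and 7.25 on the other Aldrin-exposed arrays. In a list of other conjugating enzymes and related genes 5 of 17 had a higher mean. Not all of these genes encode conjugating enzymes, ALOX5AP being one that does not. LTC4S, in the middle band, was at -0.28 (standard error 0.14) and GSTCD, in the high band, at 0.45 (standard error 0.28), both with overlapping groups.

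Receptors and factors that control phase II genes showed a higher mean in 5 of 17. NFE2L2, which encodes NRF2, had a fold change of 0.03 and AHR, the dioxin receptor, one of -0.04. MAFF, a small partner of NRF2, had one of 0.27 (standard error 0.12) and was at an unadjusted p under 0.05. ESR2, an estrogen receptor gene in the middle band, had one of -0.23. Of 7 measured NRF2 marker genes outside the classes 2 had a higher mean, GCLM at 0.11 and SLC7A11 at 0.05, both also in the list of glutathione metabolism. The 5 of lower mean were HMOX1 at -0.004, TXNRD1 at -0.02, NQO1 at -0.03, SRXN1 at -0.08 and OSGIN1 at -0.28. All 7 were in the high band, where 52.1% of all genes had a higher mean, and their 95% intervals ran between -0.66 and 0.48.

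Promoter sequence went with the bands. A RefSeq promoter window of 300 bases was matched for 34 of the 43 members by symbol, the other 9 being EPHX2, GSTM2P1, GSTT1, MGST2, NAT1, NAT2, SULT4A1, UGT2B28 and UGT2B4, and for genes with several starts the highest CG count was taken. High members had a median of 21 CG, middle members 14 and low members 2, beside 29, 19 and 6 for all measured genes of those bands with a window. Of 11 high members 10 had 10 or more CG, the exception being GSTM3 with 1, and of 18 low members 2 did, GSTM5 with 22 and GSTM2 with 17. GSTM4, of the same subfamily and in the high band, had 21. UGT members had from 0 to 7 CG and a median of 2, and SULT members a median of 2. Since background rises with the G and C content of the probes and that content was not used here, the part of probe composition in this pattern was not tested.

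**Figure D5:**
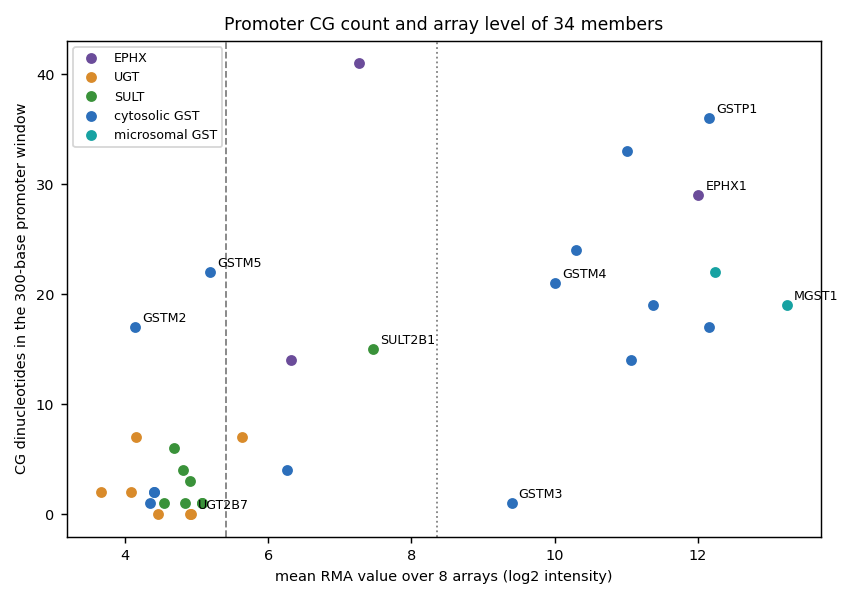
CG dinucleotides in the 300-base promoter window (y axis) against the mean RMA value over 8 arrays (log2 intensity, x axis) of the 34 members with a window, coloured by class, with the 15-G/C and 20-G/C control means as dashed and dotted lines. Of the 11 members beyond the dotted line 10 have 10 or more CG, while GSTM3 has 1.

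The core of the antioxidant response element, which NRF2 binds, was searched as TGACNNNGC on both strands. Here the windows of all listed starts of a gene were searched, not only that of highest CG count. At least 1 window held it in 9 of 34 members (26.5%) and in 18.2% of all measured genes with a window. The GSTP1 window printed above holds TGACTCAGC beginning 66 bases before the start, and a window of EPHX1 with 5 CG, not the one of 29 CG counted above, holds TGACTTGGC at 78 bases before its start. The MGST1 match too was in a window of lower CG count, 4 against 19. Matches were also in GSTA4, GSTM5, GSTO1, MGST1, SULT1C2, UGT2B10 and UGT2B11, while GSTM4, GSTM3 and UGT2B7 did not have it. The members with a match in the high band, EPHX1, GSTA4, GSTO1, GSTP1 and MGST1, had fold changes from -0.03 to 0.08.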

How the data were processed

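Gene expression was measured in 8 samples of DU145 cells, 4 Aldrin-exposed and 4 Non-exposed, grouped by the labels. Each deposited value is a log2 intensity of a probe set, made by the authors with RMA (background correction, quantile normalization and summary of the probes). Shifts common to a whole array had thus been removed. The version of RMA and the chip definition are not given in the sources used here, and 0 value columns were unused.

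The table holds 49395 probe sets, of which 102 are controls and 49293 were tested. The platform's annotation gives 44988 probe sets 1 gene, 1832 several and 2473 none. Conditions were compared in R 4.3.3 with the limma package (3.58.1) by lmFit and eBayes. The two-sided p-values were adjusted by Benjamini-Hochberg across all tested probe sets, with a threshold of 0.05. Single values were compared with the two-sided exact permutation test of the difference of means. The script was tested on simulated data. Tables and figures were made with Python 3.11.15, numpy 2.4.6, pandas 2.3.3 and matplotlib 3.10.9.

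The members, gene lists and tests were chosen with earlier results of these data known. The rule named, for each class, the members of highest mean and of smallest p, the 8 members of highest mean, the 6 of smallest p in each direction, those without overlap, EPHX1 and EPHX2, and of each list the 2 genes of smallest p. Other members and genes were named for their place in a pathway, and the probe sets of several genes after their values were seen. In the lists 4 symbols were updated. The number of arrays, not sequencing depth, limits the precision.

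Promoters were taken from RefSeq (GRCh38.p14) without those of chromosome 8, and used only for sequence, since the value table names no genome build. Alternatives covered each array left out in turn, the choice of probe set per gene, a filter on dim probe sets, centring, quantile normalization once more, weighted arrays, a replicate block, a trended, robust variance and the unequal-variance test. The numbers were not taken as pairing the arrays, since the labels do not say that a number marks a shared culture or day. In their deviations 0 of 8 arrays correlated best with the array of the same number. Deviations also hold effects of single arrays, so this count cannot tell whether the arrays were paired.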

Additional observations from a re-analysis of the deposited data

Results flagged for a closer look

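Of the 86 groups of 4 arrays examined among the members, 5 (5.81%) held an array far from the rest of its group (by Dixon's ratio of the gap to the group's range at its 95% critical value), and chance alone flags about 1 in 20 groups. GSTZ1 was 11.48 on Aldrin-exposed replicate 2, with the next array at 10.95. MGST3 was 11.96 on Aldrin-exposed replicate 3, with the next at 12.30. GSTA2 was 4.22 on Aldrin-exposed replicate 3, with the next at 4.42. GSTP1 was 12.21 on Non-exposed replicate 2, with the next at 12.11. NAT2 was 5.03 on Non-exposed replicate 2, with the next at 4.84.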

How the results depend on the processing

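Under every alternative 0 members passed the adjusted p, and the smallest adjusted p of a member was 0.823, without Non-exposed replicate 4. The 1 probe set past the threshold became 0 under the unequal-variance test, the replicate block, the removal of dim probe sets and the GC background covariate. The 1515 probe sets at an unadjusted p under 0.05 became 2505 with array weights, 912 with the replicate block and 434 without dim probe sets. The 2 members at that p became 0 with the trended, robust variance model, 0 with the replicate block, and 1 without dim probe sets, with the GC background covariate or with the mean of all probe sets of a gene. Without dim probe sets 9 of the 15 members left had the higher mean in Aldrin-exposed cells, and with arrays centred on their median 2 members had no overlap. Fewer probe sets are tested without the dim ones, which by itself lowers such counts, and whether it accounts for the whole fall was not tested. For the other changes the cause was not tested either.

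Leaving out single arrays gave 0 to 1 probe sets past the threshold, 1058 to 2811 at an unadjusted p under 0.05 (the latter without Non-exposed replicate 4), 0 to 3 members at that p, 18 to 37 members with the higher mean, a median log2 fold change of the members from -0.01 to 0.07, and 1 to 4 members without overlap. The count of 4 was without Aldrin-exposed replicate 3. The 1 probe set past the threshold was kept as a count of 1 only without Non-exposed replicate 2 or 4.

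GSTM4 had a fold change from 0.18 to 0.25 and an unadjusted p under 0.05 in 10 of 17 alternatives, and EPHX2 a fold change from 0.17 to 0.28 and such a p in 9 of 17. Of the 21 members that the rule named, 10 kept their sign in every alternative run. Whether low and middle members rise above background depends on the composition of their probes, which was not used here.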
